A study of Homo sapiens with 4 samples.

Results

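The 8 genes described here encode the enzymes that make purine nucleotides from small precursors. They were chosen by name from the gene table, and all 8 are among its 29833 rows. PRPS1 and PRPS2 are the synthetases of phosphoribosyl pyrophosphate (PRPP), PPAT commits PRPP to purine synthesis, and GART, PFAS, PAICS, ADSL and ATIC carry the ring through the remaining steps to inosine monophosphate (IMP). The cells were Reh-6-MPR, a 6-mercaptopurine (6-MP) resistant derivative of Reh, a cell line long established from B-cell acute lymphoblastic leukemia. The labels give their genotype as WT. All 4 libraries came from these resistant cells after 48 h, with 1 library each for PBS as vehicle, histidine at 4 mM, 6-MP at 1.0 μg/mL, and both agents at those doses. The parental line was not analysed here, so the values describe the response of resistant cells and not resistance itself.

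De novo synthesis builds the purine ring step by step on ribose 5-phosphate, and proliferating lymphoid blasts use it together with salvage of free bases. GART and ATIC each transfer a formyl group from 10-formyltetrahydrofolate, which ties the route to the folate pool, and histidine breakdown also draws on tetrahydrofolate. 6-MP is a purine analogue that salvage converts to thioinosine monophosphate, whose methylated form is known as an inhibitor of the PPAT enzyme. The question that the design put to these genes was whether their transcripts differed after histidine, after 6-MP, or after both together.

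Expression was deposited as FPKM (fragments per kilobase of transcript, scaled to a read total of the library), which makes levels of genes of different length comparable. Within each gene the values are whole multiples of 1 read, so reads were recovered. The read totals that scaled FPKM, its denominators, were recovered too, from 12899122 (combined treatment) to 15486376 (histidine). Recovered reads of all genes came to 100.22% to 100.25% of these totals, so they lie close to the reads assigned to genes. Of the 10 B-lineage markers 9 were analysed, and all had at least 1 FPKM in every library, from 11.8 for the lowest to 625 for the highest. Of the 9 markers of other lineages reported, 6 were analysed, and MPO, a myeloid enzyme also seen in some B-cell leukemias, was the highest at 26.4 to 41.0 FPKM. HBB, a globin of erythroid cells, was at or near 0. Summed over each list, the B-lineage markers were at 1535 to 1628 FPKM across the libraries, and the other markers at 28.8 FPKM in the lowest library and 48.1 in the highest, the combined one. Their part in the differences below was not tested. With 1 library per treatment there is no SD, no test across treatments and no p-value. The 95% intervals below are exact Clopper-Pearson intervals of read counts. What they express is counting error only, between single libraries and not between treatments. In bulk RNA, fewer cells of a type and less RNA per cell cannot be told apart.

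The promoters are shown first because PPAT and PAICS, the first committed enzyme and a later one, have overlapping promoter windows. In the gene table, on GRCh38, PPAT covers chr4:56393362-56435615 on the minus strand and PAICS covers chr4:56435741-56464578 on the plus strand. Their annotated starts are 125 bases apart and point away from each other. ATIC lies at chr2:215311956-215349773 on the plus strand and PFAS at chr17:8247618-8270491 on the plus strand. RefSeq windows from 250 bases before to 50 bases after a start (GRCh38.p14) were matched for 7 of the 8 genes. ADSL was not matched. The E-box CACGTG, the letters bound by MYC, MAX and related factors, is in capitals wherever it occurs below. The windows of PPAT, ATIC and PFAS are each written 5′ to 3′ on the strand of the gene. The windows are chr4:56435566-56435865 for PPAT, chr2:215311809-215312108 for ATIC and chr17:8249039-8249338 for PFAS, the gene that differed most below.
PPAT: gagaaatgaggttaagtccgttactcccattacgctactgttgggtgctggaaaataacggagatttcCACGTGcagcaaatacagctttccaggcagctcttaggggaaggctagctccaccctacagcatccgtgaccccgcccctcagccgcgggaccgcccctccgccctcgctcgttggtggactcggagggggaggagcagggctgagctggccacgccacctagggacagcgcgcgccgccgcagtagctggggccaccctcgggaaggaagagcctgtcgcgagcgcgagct
ATIC: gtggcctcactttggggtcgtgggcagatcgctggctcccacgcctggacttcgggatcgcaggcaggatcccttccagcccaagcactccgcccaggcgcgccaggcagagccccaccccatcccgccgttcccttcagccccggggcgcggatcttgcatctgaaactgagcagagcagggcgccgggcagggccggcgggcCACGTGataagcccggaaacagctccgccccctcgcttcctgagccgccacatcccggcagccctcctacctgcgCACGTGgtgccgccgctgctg
PFAS: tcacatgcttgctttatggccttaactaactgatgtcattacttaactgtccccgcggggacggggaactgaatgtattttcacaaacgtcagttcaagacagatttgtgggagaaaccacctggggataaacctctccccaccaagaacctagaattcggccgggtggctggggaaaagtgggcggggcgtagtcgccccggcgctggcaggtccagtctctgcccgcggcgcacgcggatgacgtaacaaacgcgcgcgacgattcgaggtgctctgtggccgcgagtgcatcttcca
Positions here count from the RefSeq start of each gene, negative before it, which need not be the outermost start in the gene table. The PPAT window holds the E-box once, from -182 to -177. The same letters lie from 40 to 45 of PAICS, because one PAICS window is the opposite strand of the PPAT window over 236 bases. The ATIC window holds the E-box at 2 places, from -46 to -41 and from 29 to 34. The PFAS window has none. In all, 3 of the 7 genes with a window held CACGTG on either strand, against 8.77% of the 27305 genes with windows of this length. PPAT and PAICS count the same site here. The 7 genes had 11 windows, and the 27305 genes had 35116, so the shares per gene are not matched for windows. The GC box GGGCGG was in a window of all 7 and in 48.3% of all genes. The CCAAT box was in windows of GART and PRPS1 and in 39.7% of all genes. The letters CGCATGCG, the core of the motif of NRF1, were in no window of the 7 genes and in 2.46% of all genes. All 4 motifs were searched on both strands, and no match overlapped that of another motif. These counts describe letters and not binding.

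The combined library had the lowest value of the 4 in 7 of the 8 genes. PRPS2 was the exception, with its lowest value in the histidine library. Of the 12750 genes whose mean reached 1 FPKM, 36.4% were lower in the combined library than in vehicle. The shares were 38.8% against histidine and 36.8% against 6-MP. The share of genes with their lowest value of the 4 in the combined library was not computed. Summed over the 8 genes, the level was 277.8 FPKM in the vehicle library, 272.4 with histidine, 281.9 with 6-MP and 189.5 with both agents. The 8 genes took 0.155% of the read total of the vehicle library, 0.152% with histidine, 0.158% with 6-MP and 0.102% with both.

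PRPS1 (ENSG00000147224), the more abundant of the pair of synthetases that make PRPP, is at chrX:107628428-107651993 on the plus strand. Its level was 44.8 FPKM in the vehicle library, 46.4 with histidine, 43.3 with 6-MP and 36.3 with both. The first 3 values lay close together and the combined value below them. Adjusted for library depth, the combined library was 19.0% below vehicle (95% counting interval 13.6% to 24.2%). The FPKM steps of PRPS1 fit a length of 3390 bases and also one of 1695 bases with every read count divided by 2. The longer was used because it is the multiple of 1695 nearest to the 2623 exon bases of PRPS1 in GENCODE 29, where 1 transcript alone has 2152 bases. With the smaller counts, the log2 read ratio of the combined library to vehicle, -0.30, had an interval from -0.44 to -0.17 in place of -0.40 to -0.21.

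PRPS2 (ENSG00000101911), the second synthetase, lies at chrX:12791355-12824222 on the plus strand. It stood at 18.5 FPKM in the vehicle library, 17.7 with histidine, 21.2 with 6-MP and 17.8 with both. The 6-MP library was the highest, though its interval met that of vehicle, and the other 3 overlapped within their counting intervals. Its log2 read ratio to vehicle was 0.19 with 6-MP (interval 0.05 to 0.33) and -0.05 with both agents (-0.21 to 0.10). The ratio of PRPS1 to PRPS2 within a library was 2.42 (2.22 to 2.63) for vehicle and 2.62 (2.42 to 2.85) for histidine. It was 2.05 (1.89 to 2.21) for 6-MP and 2.03 (1.85 to 2.23) for the combined treatment. Both libraries that had received 6-MP thus had a smaller ratio than the histidine library, and their intervals did not overlap that of histidine. Against vehicle, the interval of the combined library overlapped, and that of 6-MP lay just below. With the smaller read counts of PRPS1 these intervals would be wider. This ratio does not depend on how the libraries were scaled.

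PPAT (ENSG00000128059), the amidophosphoribosyltransferase that starts the route, measured 21.3 FPKM in the vehicle library, 18.8 with histidine, 21.1 with 6-MP and 12.7 with both. Vehicle and 6-MP were nearly equal, the histidine library lay between, and the combined library was the lowest. The combined value was 40.5% below vehicle (35.4% to 45.2%) and 32.6% below histidine alone (26.8% to 38.0%). PPAT was the gene that differed most after histidine alone, with a log2 read ratio of -0.18 (-0.28 to -0.08).

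PAICS (ENSG00000128050), a bifunctional enzyme that carboxylates the imidazole ring and adds aspartate to it, was the most abundant of the 8 transcripts. It reached 84.7 FPKM in the vehicle library, 81.0 with histidine, 87.9 with 6-MP and 53.3 with both. The combined library was far below the other 3. The combined value was 37.1% below vehicle (34.9% to 39.2%), 34.2% below histidine and 39.3% below 6-MP. The ratio of PPAT to PAICS, the divergent pair, was 0.252 (0.239 to 0.265) for vehicle and 0.232 (0.220 to 0.245) for histidine. It was 0.240 (0.228 to 0.253) for 6-MP and 0.238 (0.221 to 0.256) for the combined treatment. All 4 intervals overlapped.

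GART (ENSG00000159131), a trifunctional enzyme that makes the glycinamide intermediates and closes the imidazole ring, lies at chr21:33503931-33543491 on the minus strand. It was at 27.5, 27.2 and 27.8 FPKM in the vehicle, histidine and 6-MP libraries and at 17.4 FPKM in the combined library. The first 3 intervals overlapped and the combined library was 36.6% below vehicle (32.8% to 40.3%). ATIC (ENSG00000138363), which completes IMP through a formyl transfer and ring closure, was at 54.4, 54.3 and 54.7 FPKM in the vehicle, histidine and 6-MP libraries and at 37.9 FPKM in the combined library. Relative to their size, its first 3 values were the closest of any of the 8 genes, and the combined value was 30.3% below vehicle (26.1% to 34.3%). These 2 genes encode the folate-dependent enzymes of the route.

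PFAS (ENSG00000178921), the synthase that brings in a nitrogen from glutamine after the first formyl transfer, differed most in the combined library. Its level was 25.2 FPKM in the vehicle library, 25.7 with histidine, 24.8 with 6-MP and 13.1 with both agents. The values of the first 3 libraries overlapped within their intervals, and the combined value stood alone. It was 48.2% below vehicle (44.3% to 51.8%), 49.1% below histidine and 47.2% below 6-MP. PFAS made up 9.08% of the summed FPKM of the 8 genes in the vehicle library and 6.90% in the combined library.

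ADSL (ENSG00000239900), the lyase that releases fumarate in this route and again in the step to AMP, is at chr22:40346461-40390463 on the plus strand and was far below its pathway neighbours. It was listed at 1.32 FPKM in the vehicle library, 1.39 with histidine, 1.24 with 6-MP and 0.980 with both, from 153 to 261 reads. The first 3 intervals overlapped, and that of the combined library met only that of 6-MP. The combined library was 25.8% below vehicle (8.61% to 40.0%). The deposited ADSL values fit a length of 12109 bases, against 7111 exon bases in GENCODE 29, and a shorter length would give higher FPKM in every library. In GENCODE 29, 68.8% of the coding bases of ADSL, 1306 of 1899, are also exons of another gene on the same strand (ENSG00000284431), which was listed at 0 in 2 libraries and at 0.0429 and 0.0510 FPKM in the others. None of the other 7 genes shares a coding base with a same-strand gene. Reads in shared bases can be lost to both genes under some counting rules, so the ADSL level is uncertain. The part of this overlap in the level was not tested.

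Across the combined comparisons, none of the 8 genes had an absolute difference of at least 1 in log2(FPKM + 1), and none did so after either agent alone. The study called genes by an absolute log2 fold change of that size together with an adjusted p, and the p cannot be had from single libraries. With median ratio scaling in place of FPKM as deposited, PFAS passed the size of 1 in all 3 combined comparisons, at -1.13 against vehicle, -1.11 against histidine and -1.09 against 6-MP. With FPKM as deposited, shares were taken over all 12750 genes compared, those whose mean reached 1 FPKM. The share lower by at least 1 was 0.533% with histidine and 0.722% with 6-MP. It was 1.51% with both against vehicle, 1.4% against histidine and 1.2% against 6-MP. No such share was computed with median ratio scaling, which lowers the combined library against the others, so the PFAS values above have no matched background. At a smaller difference of 0.58, about 1.5-fold, PPAT, GART, PFAS and PAICS were lower in the combined library than in vehicle, against 5.65% of all genes. Against histidine alone GART, PFAS and PAICS were lower by that much (5.64% of all genes), and against 6-MP alone the first 4 were again (5.16%). These comparisons share the combined library and are not independent of each other. The counting interval lay below 0 for 7 of the 8 genes against vehicle and for 7 against histidine, with PRPS2 as the exception in both, and for all 8 against 6-MP. The shares of all genes with such intervals were 20.8%, 22.1% and 21.2%. Counting intervals narrow with more reads, and every member but ADSL lay at percentile 80.3 or above in mean FPKM. The shares of intervals given here and below are not matched for depth.

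The differences of the 8 genes between the combined library and vehicle in log2(FPKM + 1) were -0.90 for PFAS, -0.71 for PPAT, -0.66 for PAICS, -0.63 for GART, -0.51 for ATIC, -0.30 for PRPS1, -0.23 for ADSL and -0.05 for PRPS2. ADSL is so low that the added 1 shrinks its difference, and its log2 read ratio was -0.43 (-0.74 to -0.13). The median of the 8 was -0.57 against vehicle, -0.52 against histidine and -0.58 against 6-MP. Over all genes compared, the medians were 0.13, 0.11 and 0.13, so most genes had higher FPKM in the combined library, with a small median difference. Relative to that median, PFAS was -1.03, PPAT -0.84, ATIC -0.64 and PRPS2 -0.18 against vehicle. Among all genes, PFAS stood at percentile 1.98 of this difference, PPAT at 3.67, PAICS at 4.26, GART at 4.73 and ATIC at 7.20. PRPS1 stood at percentile 14.6, ADSL at 18.6 and PRPS2 at 31.8. The direction of PRPS2 between the combined and histidine libraries depended on scaling, at 0.01 as deposited and at -0.18 with median ratio scaling. The other 7 genes were lower in the combined library in all 3 comparisons under every scaling tried, and so was PRPS2 against vehicle and against 6-MP. Of all genes compared, 36.4%, 38.8% and 36.8% were lower in the combined library than in vehicle, histidine and 6-MP, with FPKM as deposited. Shares under the other scalings were not computed.

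After either agent alone, the genes differed little. Histidine alone gave log2(FPKM + 1) differences from -0.17 for PPAT to 0.05 for PRPS1, with a median of -0.0090. PPAT and PAICS had counting intervals below 0, as did 8.71% of all genes, and the PAICS log2 read ratio was -0.06 (-0.11 to -0.02). 6-MP alone gave differences from -0.05 for ADSL to 0.18 for PRPS2, with a median of -0.0024. PRPS2 and PAICS had intervals above 0, as did 10% of all genes, and the PAICS log2 read ratio was 0.05 (0.01 to 0.09).

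The design of 2 agents alone and together allows a value for the departure from additivity, here taken in log2(FPKM + 1) as the combined value plus the vehicle value, less the sum of the histidine and 6-MP values. It was negative for all 8 genes, with a median of -0.52. PFAS had -0.90, PAICS -0.65, GART -0.63, PPAT and ATIC both -0.52, PRPS1 -0.30, ADSL -0.22 and PRPS2 -0.17. Over all genes compared the median was 0.11 and 39.8% were negative. If the ratios of the single agents to vehicle multiplied, PFAS would have stood at 25.2 FPKM, against 13.1 measured. PRPS2 would have stood at 20.2, against 17.8. Since the single-agent differences were small, the departures largely restate the differences of the combined library from vehicle. For PFAS both values were -0.90. They were less alike for PPAT (-0.52 against -0.71) and PRPS2 (-0.17 against -0.05). No replicate gives the error of these departures.

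The makeup of the pathway also shifted within the combined library. PRPS1 made up 16.1% of the summed FPKM of the 8 genes with vehicle and 19.1% with both agents, and PRPS2 6.67% and 9.42%. The 5 genes from PPAT to ATIC other than ADSL summed to 213.1 FPKM with vehicle and 134.4 with both, and the synthetase pair to 63.3 and 54.1 FPKM.

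Copies of the members that can share reads were low. The processed pseudogenes PAICSP1, PAICSP4, PPATP1 and PPATP2 each had at most 11 reads in any library. PRPS1P2, a pseudogene of PRPS1, had 43 to 56 reads and 3.35 to 3.90 FPKM, well under PRPS1 itself. PRPSAP1, an inhibitory partner of the synthetases, was at 9.08 FPKM with vehicle and 11.8 with both. PRPSAP2 was at 8.73 and 8.12 FPKM.

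Around the route, other lists of nucleotide metabolism were set out in the same way. Only RRM2B, the p53-inducible subunit of ribonucleotide reductase, passed the threshold of 1 in these lists. It was at 7.22, 7.25 and 7.39 FPKM in the vehicle, histidine and 6-MP libraries and at 17.2 FPKM in the combined library, a log2(FPKM + 1) difference of 1.14 from vehicle. Of all genes, 5.01% were higher by at least 1 in the combined library than in vehicle, 4.15% than in histidine and 4.82% than in 6-MP. Downstream of IMP, the isozymes of IMP dehydrogenase, which lead to GMP, went opposite ways. IMPDH1 was at 19.8 FPKM with vehicle and 11.3 with both, and IMPDH2 at 28.3 and 46.8. Of the 4 genes compared on the branches to AMP and GMP, IMPDH1 was lower and IMPDH2 higher than in vehicle by at least 0.58, and the median difference was -0.27. Of all genes, 5.65% were lower and 16% higher by that much, which is the background for the counts at 0.58 in the other lists as well.

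Among the 5 salvage genes, none differed by 0.58 and the median against vehicle was -0.12. HPRT1, which salvages hypoxanthine and guanine and also activates 6-MP, was at 19.3 FPKM with vehicle and 27.1 with both. APRT, the adenine counterpart, was at 40.8 and 29.3 FPKM. Of the 6 purine breakdown genes compared, PNP was lower (13.5 and 8.21 FPKM) and NT5C higher (4.24 and 7.48 FPKM), with a median difference of 0.21. In the one-carbon list, MTHFD1L, a mitochondrial supplier of formate, was at 17.4 FPKM with vehicle and 11.2 with both, and MTHFD1, which makes 10-formyltetrahydrofolate in the cytosol, at 13.9 and 10.0. SHMT2 and MTHFD2, mitochondrial enzymes of the same supply, were at 55.8 and 71.4 FPKM and at 19.3 and 25.4 FPKM. The median of the 8 one-carbon genes compared was -0.12.

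De novo pyrimidine synthesis is the parallel route. Its 5 genes compared had a median of -0.25 against vehicle and none differed by 0.58. CAD, which starts that route, was at 40.0 FPKM with vehicle and 33.1 with both. Of the 9 genes that supply or regulate ribose 5-phosphate use, RPIA, the isomerase that makes ribose 5-phosphate, was the 1 lower by at least 0.58, against 5.65% of all genes, at 28.4 FPKM with vehicle and 17.2 with both, and their median was -0.09. Of the 7 genes for ribonucleotide reductase and nucleotide kinases, NME1 was lower and RRM2B higher by at least 0.58, against 5.65% and 16% of all genes, with a median of -0.08. NME1 and NME2 share a readthrough transcript and their levels are uncertain.

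The genes whose pattern lay nearest to the median of the 8 were sought among 4367 protein-coding genes averaging 10 FPKM or more, by distance over their 3 log2 differences from vehicle, which come from 4 libraries. The nearest 5 were KHSRP, XRCC6, GATAD2A, RBM10 and TBL3. KHSRP, an RNA-binding protein, was at 119.9, 118.5 and 120.0 FPKM with vehicle, histidine and 6-MP and at 80.9 with both. XRCC6, the Ku70 subunit in DNA end joining, was at 256.6, 256.6 and 255.2 FPKM in those 3 libraries and at 171.5 with both. The distances of the 5 genes were 0.012 to 0.024 on the log2 scale.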

How the data were processed

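Treatments of the 4 RNA-seq libraries of Reh-6-MPR cells, 1 per treatment, were taken from the sample labels. Total RNA was extracted with Trizol, and a service company sequenced and quantified it. The authors deposited expression as FPKM per gene. The submitters' processing notes name Trimmomatic, HISAT2, Cufflinks, HTSeq and hg38 (GRCh38), and versions and annotation release are not given in the sources used here. FPKM is relative, so abundant genes that change shift the others.

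Reads were recovered as the whole multiples behind each FPKM value (tolerance 0.01; whole in all 4 libraries for 29830 of 29833 genes), taking the multiple, up to 6, of the shortest length nearest to the GENCODE 29 exon length. Recovered totals were 100.22% to 100.25% of the denominators. This rule was set after those totals were seen. Differences used log2(FPKM + 1) for genes whose mean reached 1 FPKM, at a threshold of 1, the size the study used together with an adjusted p, and at 0.58. DESeq2, which the authors used, was not run and no adjusted p is given, since both need replicates. Alternatives were a pseudocount of 0.1, other filters, protein-coding genes only, median ratio and TPM scaling, recovered reads and annotated lengths. Named genes are all 8 members, list genes past the threshold or bearing on a member, copies, and the 5 nearest genes. Other list genes named with values are those at the ends of their lists, or with a role beside a member, chosen after their values were seen. A marker of another lineage is not reported here. The members and lists were chosen with earlier results of these data known. Scripts were tested on simulated data and run with scipy 1.17.1, pandas 2.3.3, numpy 2.4.6 and matplotlib 3.10.9 on Python 3.11.15.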

Additional observations from a re-analysis of the deposited data

Results flagged for a closer look

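PAICS was slightly higher in the 6-MP library than in vehicle, and lower in the combined library than in the histidine library. Its difference in log2(FPKM + 1) was 0.052 for 6-MP alone against vehicle and -0.60 for both agents against histidine alone. The counting interval lay above 0 in the first comparison, as for 10% of all genes, and below 0 in the second, as for 22.1%. With 1 library per treatment, the difference between these effects was not tested against replicate error. The pattern was not particular to PAICS. GART (0.016 and -0.61) and ATIC (0.0084 and -0.51) had the same signs, with intervals for 6-MP alone that included 0. PFAS (-0.025 and -0.92) and PPAT (-0.013 and -0.53) were near 0 with 6-MP alone and lower in the second comparison. PRPS1 and ADSL were lower in both, and PRPS2 in neither (0.18 and 0.013).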

How the results depend on the processing

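No paired analysis was possible because there was a single library per treatment, so no replicate could be left out either. With median ratio scaling, which lowers the combined library against the others, 1 gene (PFAS) was lower by at least 1 in each of the 3 combined comparisons. The share of all genes lower by that much was not computed under this scaling. The medians of the 8 genes were then -0.80 against vehicle, -0.71 against histidine and -0.81 against 6-MP, and the median departure from additivity was -0.70. At a threshold of 0.58, 4 genes passed against vehicle, 3 against histidine and 4 against 6-MP. With GENCODE 29 lengths the ratio of PRPS1 to PRPS2 was 3.12 (vehicle), 3.39 (histidine), 2.64 (6-MP) and 2.63 (combined). A filter at a mean FPKM of 5 leaves ADSL out. The other alternatives left the counts past the threshold at 0. Median ratio scaling moved the differences of 7 of the 8 genes by more than their counting error in each of the 3 combined comparisons, ADSL being the exception, and no other scaling, pseudocount or read-based setting moved a gene's difference by that much. The departure of ADSL from additivity, -0.22, was -0.38 with a pseudocount of 0.1, -0.33 with TPM scaling and -0.41 on recovered reads. Depth limits ADSL most, with 153 to 261 reads.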
